A study of Mus musculus with 18 samples.

Results

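Autophagy encloses cytoplasm, protein aggregates or damaged mitochondria in a double membrane, the autophagosome, which then fuses with a lysosome for degradation of its content. A kinase complex around ULK1 starts the process, a lipid kinase complex around VPS34 (Pik3c3) marks the membrane, and a ubiquitin-like conjugation system attaches proteins of the ATG8 family (LC3 and GABARAP proteins) to it. Cargo receptors such as p62 (Sqstm1) link cargo to ATG8 proteins, the syntaxin STX17 drives fusion with the lysosome, and PINK1, BNIP3, NIX (Bnip3l) and FUNDC1 direct mitochondria to this route. Only transcripts were measured here, so the values are RNA levels and not autophagic flux. The genes described were a list of 42 such mouse genes, taken by symbol from the 55487 genes counted, and each symbol matched 1 gene. Counts were summed over the exons of a gene, and gene positions are those of the deposited files (GRCm38).

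RNA was sequenced from whole subcutaneous white adipose tissue (sWAT) of mice at 12 weeks of age, 4 Ctrl and 4 Csn8AKO, and from brown adipose tissue (BAT) of mice at 4 weeks, 5 Ctrl and 5 Csn8AKO, with 1 mouse per library. Csn8AKO mice carry floxed Csn8 alleles and a Cre transgene under the adiponectin promoter, which is active in adipocytes, so that exons 4 to 6 of Csn8 (gene symbol Cops8), a subunit of the COP9 signalosome, are removed in adipocytes and not in the other cells of the tissue. Ctrl mice were floxed littermates without Cre, so that both groups share the floxed alleles. All mice were described as male and were fasted for 4 h before tissue collection.

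Between 15835721 and 66719937 reads were counted per library, the depth of BAT being higher in all 10 libraries than in any sWAT library, and ribosomal RNA genes took 0.863 to 47.8% of counts. Cops8 counts, which include transcripts that lack the deleted exons, were 35.0 ± 0.911 CPM (the count relative to the scaled library total; SD, n = 4) in sWAT Ctrl and 32.2 ± 2.99 in sWAT Csn8AKO (edgeR adjusted p = 0.623), and 39.4 ± 3.22 against 32.2 ± 3.56 in BAT (SD, n = 5; adjusted p = 0.0211). The 10 BAT libraries went against the label of male mice, since Xist was at 635 to 876 CPM and Ddx3y had 0 counts in each of them, whereas the 8 sWAT libraries held Xist at 0.689 CPM at most and Ddx3y at 59.3 to 86.4 CPM. Tissue therefore cannot be told apart from age or from this difference. Markers of cell types were listed with earlier results of these data known. The summed level of 10 macrophage markers was 570 to 780 CPM in sWAT Ctrl and 1062 to 1727 CPM in sWAT Csn8AKO, with 8 of 10 called higher (adjusted exact permutation p of the sum = 0.124). In BAT it was 55.5 to 81.0 against 229 to 338 CPM, with 9 of 10 called higher (adjusted exact permutation p = 0.0344). Fibroblast and progenitor markers rose in BAT too, from 1034 to 1760 CPM to 2716 to 4641 CPM, with 7 of 7 called higher (adjusted exact permutation p = 0.0344). The summed level of 8 adipocyte markers was 11328 to 16364 CPM in sWAT Ctrl and 4744 to 10383 CPM in sWAT Csn8AKO (adjusted exact permutation p = 0.124). In BAT the adipocyte markers overlapped, at 11053 to 12882 CPM in Ctrl and 10760 to 13422 CPM in Csn8AKO (adjusted exact permutation p = 0.499), as did the brown adipocyte markers (adjusted exact permutation p = 0.299). The part of these cells in the values below was not tested, and in whole tissue fewer cells of a type and less RNA per cell cannot be told apart. Some libraries stood apart. BAT Csn8AKO replicate 2 had the highest ribosomal RNA share (15.1%) and the highest adipocyte markers (13422 CPM) in BAT. sWAT Ctrl replicate 1 and sWAT Csn8AKO replicate 2 had T cell markers at 254 and 334 CPM. The latter library also had the lowest adipocyte markers in sWAT (4744 CPM). BAT Csn8AKO replicates 1 and 5 had the highest skeletal muscle markers in BAT, at 116 and 210 CPM. In sWAT, skeletal muscle markers were highest in Ctrl replicate 3 (2725 CPM) and Csn8AKO replicate 4 (1638 CPM), and the ribosomal RNA share was highest in Csn8AKO replicates 3 and 4 (31.8 and 47.8%).

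In BAT, 14 of the 42 autophagy genes (33.3%) passed an adjusted p of 0.05 by edgeR, beside 31.9% of all 22345 genes tested, so that the share of autophagy genes called was near that of all genes. Of the 14, 11 were lower in Csn8AKO (background of genes called lower, 15.8%) and 3 were higher (background 16.0%). None of the 42 changed by 2-fold, beside 11.0% of all genes tested. The 11 that fell were Atg10, Map1lc3a, Fundc1, Pink1, Stx17, Optn, Wipi2, Pik3r4, Ulk2, Atg4a and Ulk1, and the 3 that rose were Sqstm1, Plekhm1 and Atg7. The balance of directions depended on scaling. With library size alone in place of TMM factors, which moved the median log2 fold change of all genes in BAT by 0.13, 5 were called lower and 6 higher. Over all genes this scaling called 2087 lower and 4183 higher in BAT, in place of 3536 and 3585. The 5 were Atg10, Map1lc3a, Fundc1, Pink1 and Stx17, and Sqstm1 was among the 6. In sWAT, 0 of the 42 genes passed, beside 5.31% of 18843 genes (2.30% called higher and 3.00% lower). DESeq2 also called 0, beside 10.9% of all genes by that method, limma voom called 1, beside 11.4%, and 7 of the 42 had an unadjusted p under 0.05, beside 20.4% of all genes.

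**Figure D1:**
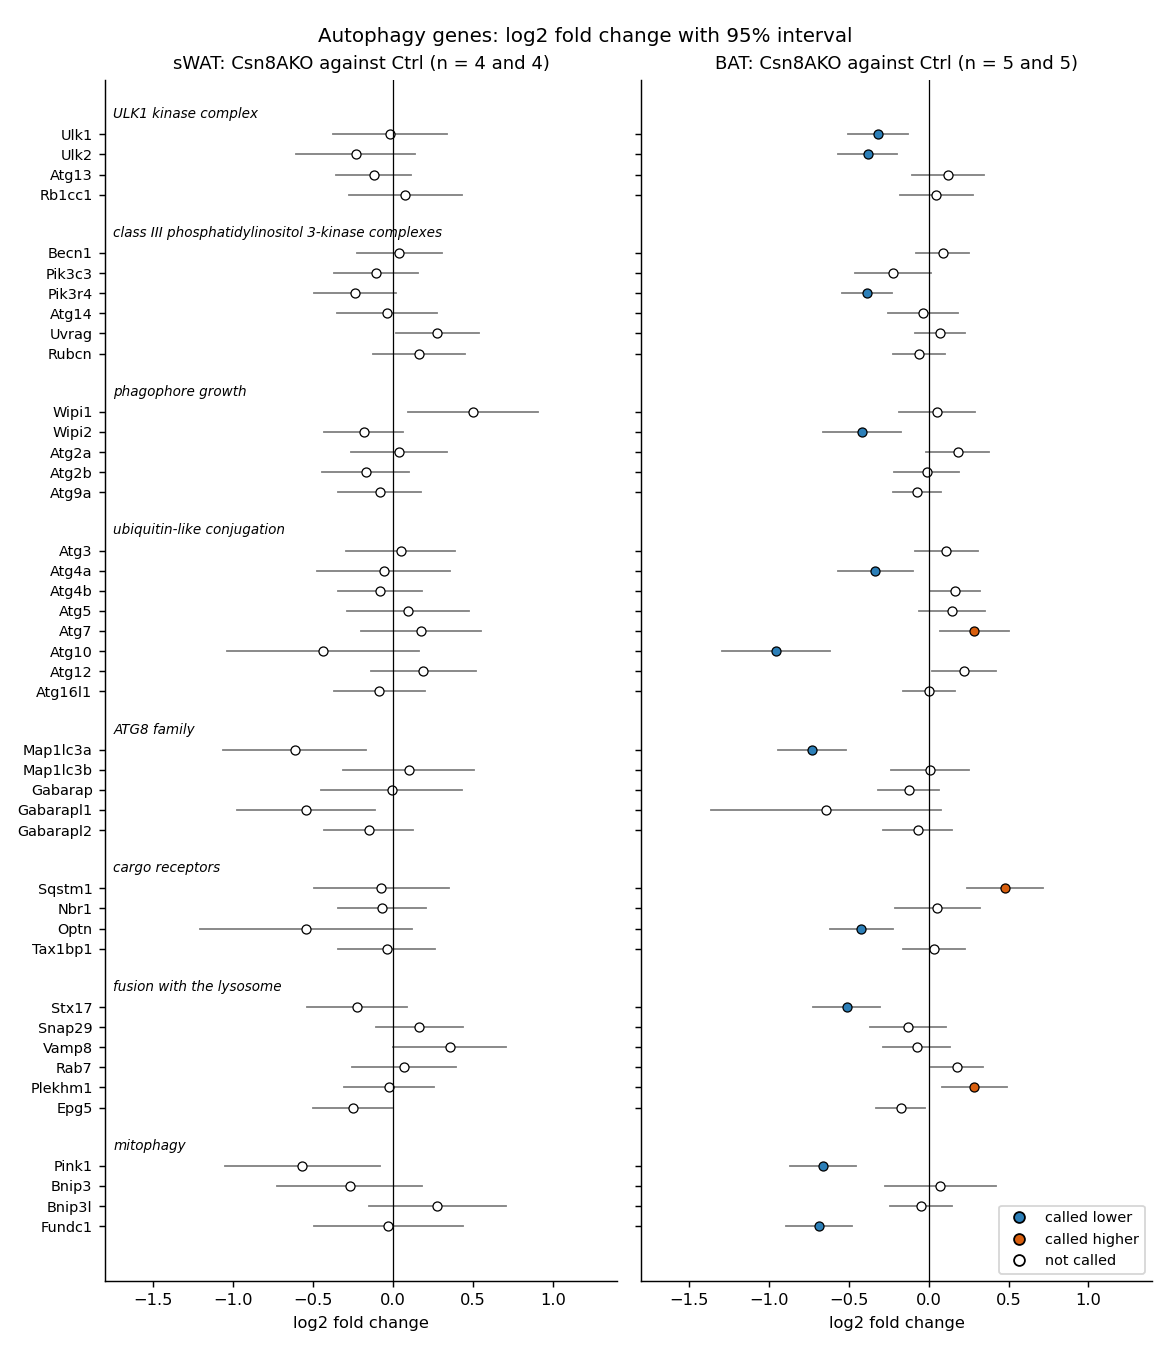
Log2 fold change of the 42 autophagy genes in Csn8AKO against Ctrl, grouped by role, in sWAT (left, 4 and 4 mice) and BAT (right, 5 and 5 mice); lines are 95% intervals and filled points have an adjusted p under 0.05. In BAT 11 points are filled as lower and 3 as higher, and in sWAT no point is filled.

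Sequences upstream of the start site are shown for called genes because members that change together may be compared by the motifs in front of them. The RefSeq promoter table (GRCm38.p6, 250 bases before and 50 after the start) held 34 of the 42 genes and 13 of the 14 called in BAT. Map1lc3a, Atg16l1, Pik3c3, Atg12, Bnip3l, Becn1, Rb1cc1 and Epg5 had no entry. Both strands were searched for CACGTG, the core of the E-box bound by factors such as TFEB and MITF. They were also searched for the CLEAR element of lysosomal genes, a longer palindrome that contains CACGTG, and for the core of the antioxidant response element, TGANNNNGC. The hypoxia response core was searched in a form with A before the shared letters (ACGTG, which also lies within CACGTG) and in a form with G (GCGTG). Bases 200 to 21 before the start are printed below, 5′ to 3′ on the strand of the gene, for 4 genes that fell in BAT and 1 that rose, with the fixed letters of any of these motifs in capitals. None of these stretches overlaps an exon of the GENCODE M21 annotation.
Pink1, chr4:138326317-138326496, minus strand: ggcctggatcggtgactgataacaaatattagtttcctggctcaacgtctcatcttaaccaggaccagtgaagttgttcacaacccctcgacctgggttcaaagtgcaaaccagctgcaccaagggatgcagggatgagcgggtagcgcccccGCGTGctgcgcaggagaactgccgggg
Stx17, chr4:48124719-48124898, plus strand: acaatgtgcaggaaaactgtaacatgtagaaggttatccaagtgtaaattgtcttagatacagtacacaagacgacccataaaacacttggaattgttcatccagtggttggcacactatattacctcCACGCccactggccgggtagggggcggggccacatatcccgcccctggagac
Atg10, chr13:91224008-91224187, minus strand: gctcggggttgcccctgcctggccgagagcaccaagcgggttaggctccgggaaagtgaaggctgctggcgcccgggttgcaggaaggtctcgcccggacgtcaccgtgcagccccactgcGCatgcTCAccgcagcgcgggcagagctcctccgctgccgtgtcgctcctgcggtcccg
Pik3r4, chr9:105642795-105642974, plus strand: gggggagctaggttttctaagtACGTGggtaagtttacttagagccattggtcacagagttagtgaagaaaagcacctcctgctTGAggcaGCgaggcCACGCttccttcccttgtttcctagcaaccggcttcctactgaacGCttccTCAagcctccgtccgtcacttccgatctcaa
Plekhm1, chr11:103412726-103412905, minus strand: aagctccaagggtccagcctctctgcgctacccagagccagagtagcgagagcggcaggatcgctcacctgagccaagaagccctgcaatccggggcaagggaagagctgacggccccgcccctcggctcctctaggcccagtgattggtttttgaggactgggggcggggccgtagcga

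The Pink1 and Stx17 stretches each hold the hypoxia response core in its G form, the Stx17 match being on the opposite strand. The Atg10 stretch holds the antioxidant core on the opposite strand, the Pik3r4 stretch holds that core and both forms of the hypoxia response core, and the Plekhm1 stretch holds none of these letters. Over the whole promoter windows, the G form of the hypoxia response core was found in 8 of the 13 called genes, in 20 of the 34 autophagy genes and in 32.4% of all 32851 promoters, and the A form in 4 of the 13, in 16 of the 34 and in 19.6%. The antioxidant core was found in 8 of the 13, in 19 of the 34 and in 41.3% of all promoters, and Sqstm1 was not among the 8. The E-box core was found in 1 of the 13, Atg7, in 6 of the 34 and in 7.15% of all promoters, and the CLEAR element in 0 of the 34 and in 0.326% of all promoters. The start that RefSeq gives for Atg7 lies 27999 bases inside the counted gene, whereas for 9 of the 13 genes the start lies within 100 bases of the end of the counted gene. Autophagy genes were counted by 1 promoter each, whereas the share of all promoters covers every entry of the promoter table, so that the units differ. No difference from that share was tested. These matches describe letters and show no binding.

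Of the ULK1 kinase complex, both kinases fell in BAT and the other 2 members did not pass the test. Ulk2, a paralogue of Ulk1, was at 61.9, 65.9, 80.4, 69.2 and 74.7 CPM in Ctrl replicates 1 to 5 and at 52.4, 61.1, 55.4, 50.1 and 51.7 CPM in Csn8AKO replicates 1 to 5. The groups did not overlap, although Csn8AKO replicate 2 came close to Ctrl replicate 1 (log2 fold change -0.38 ± 0.086 SE, adjusted p = 0.00392). Ulk1, which codes for the kinase that receives signals from mTORC1 and AMPK, fell from 141 ± 12.9 to 113 ± 10.9 CPM (SD, n = 5; log2 fold change -0.32 ± 0.088, adjusted p = 0.0140), with Csn8AKO replicate 2 at 132 CPM, at the level of the lowest Ctrl library. The Ulk1 call was lost with library size alone (-0.20, adjusted p = 0.162), in the fit of all 18 libraries (-0.34, adjusted p = 0.0577) and without the 2 BAT Csn8AKO libraries of high muscle marker level (-0.27, adjusted p = 0.0930). Atg13 and Rb1cc1 (FIP200), the scaffold members, had log2 fold changes of 0.12 and 0.05. In sWAT the 4 genes lay between -0.23 and 0.08, Ulk1 at -0.02 (95% interval -0.38 to 0.34).

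Of the 6 genes of the class III phosphatidylinositol 3-kinase complexes, Pik3r4 was the member called in BAT. It codes for VPS15, the regulatory subunit that holds the lipid kinase VPS34. Its level was 36.2, 35.9, 38.5, 38.8 and 36.5 CPM in the Ctrl libraries and 31.4, 29.0, 26.4, 27.4 and 28.1 CPM in the Csn8AKO libraries, with no overlap (log2 fold change -0.39 ± 0.072 SE, adjusted p = 9.96e-04). The kinase gene itself, Pik3c3, was at -0.22 (adjusted p = 0.142), and Becn1, Atg14, Uvrag and Rubcn lay between -0.06 and 0.09. In sWAT, Uvrag, a Beclin 1 partner found in complexes of autophagosome and endosome maturation, was at 36.8 to 45.2 CPM in Ctrl and 46.9 to 54.8 CPM in Csn8AKO. It was the 1 autophagy gene whose sWAT Csn8AKO libraries all lay above Ctrl, beside 5.80% of all genes, and it did not pass the adjusted test (0.28 ± 0.12 SE, adjusted p = 0.213).

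Of 5 genes for growth of the early membrane, Wipi2, a reader of the lipid made by VPS34 that recruits the conjugation machinery, fell in BAT. It was at 174, 214, 236, 229 and 265 CPM in Ctrl and at 159, 204, 158, 159 and 157 CPM in Csn8AKO. Csn8AKO replicate 2 overlapped the Ctrl range and the other 4 Csn8AKO libraries lay together below it (log2 fold change -0.42 ± 0.11 SE, adjusted p = 0.0122). The call was lost with library size alone (adjusted p = 0.0724) and without the 2 BAT libraries of high muscle marker level (adjusted p = 0.0807). Wipi1, its relative, was at 0.05 in BAT. In sWAT, Wipi1 had the largest positive log2 fold change of the 42 genes, at 29.7, 40.8, 34.4 and 31.8 CPM in Ctrl and 49.1, 32.5, 55.3 and 56.5 CPM in Csn8AKO (0.50 ± 0.18 SE, adjusted p = 0.158). Csn8AKO replicate 2, a library of high T cell markers and of the lowest adipocyte markers in sWAT, was the only one within the Ctrl range. Wipi1 was called higher in sWAT without that library, without both libraries of high T cell markers, and by limma voom.

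Of 8 genes of the conjugation system, Atg10 had the largest change of the 42 genes in BAT. ATG10 is the E2-like enzyme that joins ATG12 to ATG5. Atg10 (chr13:90935356-91223968, minus strand) was at 15.3, 14.3, 12.2, 11.2 and 10.7 CPM in Ctrl and at 6.54, 9.26, 5.29, 5.96 and 5.95 CPM in Csn8AKO. All Csn8AKO libraries lay below all Ctrl libraries, replicate 2 being the nearest to them (log2 fold change -0.95 ± 0.16 SE, 95% interval -1.29 to -0.62, adjusted p = 4.03e-04). ATG7 is the E1-like enzyme that activates both ATG12 and the ATG8 proteins. Atg7 was at 43.5, 46.5, 50.2, 55.2 and 51.4 CPM in Ctrl and at 56.9, 71.5, 49.0, 59.7 and 64.1 CPM in Csn8AKO, with Csn8AKO replicate 3 within the Ctrl range (0.29 ± 0.10 SE, adjusted p = 0.0410). Atg4a, which codes for a protease that trims ATG8 proteins, fell from 9.85 ± 1.05 to 7.81 ± 0.555 CPM (SD, n = 5; -0.33 ± 0.11, adjusted p = 0.0309). The calls of Atg7 and Atg4a held in 9 and 10 of 20 alternatives. Atg3, the E2-like enzyme for ATG8 proteins, Atg4b, Atg5, Atg12 and Atg16l1 lay between 0.002 and 0.22 in BAT, and none passed the adjusted test, Atg12 at 0.22 (adjusted p = 0.0818) and Atg4b at 0.16 (adjusted p = 0.107) being the nearest. In sWAT the 8 genes lay between -0.44 and 0.19, Atg10 being the lowest (-0.44 ± 0.27 SE, adjusted p = 0.410).

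Levels of the genes were compared per length, in CPM per kilobase scaled over all 18 libraries. The length was that of all counted exons of a gene, 7517 bases for Map1lc3b and 1181 for Map1lc3a, so that the order of the genes depends on it. Of the ATG8 family, Gabarap was at 70.4 ± 6.74 in sWAT Ctrl (SD, n = 4) and 76.4 ± 5.43 in BAT Ctrl (SD, n = 5), and Map1lc3a, which codes for LC3A, at 68.6 ± 7.94 and 94.1 ± 6.99. Sqstm1 (66.7 ± 9.46 and 54.3 ± 9.03) and Pink1 (56.9 ± 3.05 and 85.2 ± 3.86) followed them in sWAT, and Pink1 lay between them in BAT. In sWAT, Gabarap, Map1lc3a and Sqstm1 overlapped in their ranges and did not separate. Gabarapl1 was at 35.7 ± 7.23 and 61.1 ± 13.2, Map1lc3b (LC3B) at 17.4 ± 2.30 and 24.1 ± 1.76, and Gabarapl2 at 10.0 ± 0.665 and 16.2 ± 1.42 CPM per kilobase. At the low end, Atg14 was at 3.01 ± 0.230 in sWAT and Uvrag at 2.92 ± 0.151 in BAT. For 16 of the 42 genes all BAT Ctrl libraries lay above all sWAT Ctrl libraries, for 3 they lay below, and for 23 the ranges overlapped. The same count was not made over all genes, so these numbers do not set the autophagy genes apart. Tissue also goes with age and with the sex-linked genes here. Wipi2 (2.89-fold higher in BAT) and Ulk1 (2.44-fold) had the highest ratios.

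Of the 5 ATG8 genes, Map1lc3a (chr2:155276297-155278073, plus strand, GRCm38) was the member called in BAT. It was at 102, 100.1, 115, 102 and 118 CPM in Ctrl and at 58.8, 82.6, 61.8, 60.8 and 60.0 CPM in Csn8AKO. The 5 Csn8AKO libraries lay below the 5 Ctrl libraries, 4 of them close together and replicate 2 above those 4 (log2 fold change -0.73 ± 0.099 SE, 95% interval -0.94 to -0.51, adjusted p = 9.31e-05). The call held in 20 of 20 alternatives. In sWAT, Map1lc3a was at 81.0, 95.1, 75.0 and 83.2 CPM in Ctrl and at 59.7, 33.0, 59.7 and 66.3 CPM in Csn8AKO. These groups did not overlap either, but the adjusted test was not passed (-0.61 ± 0.20 SE, 95% interval -1.06 to -0.17, adjusted p = 0.114). With all 18 libraries in a single fit, which shares the spread between tissues, it was called lower in sWAT as well (-0.62, adjusted p = 0.0266). The change did not differ between tissues beyond its error (BAT minus sWAT -0.13 ± 0.23 SE, adjusted p = 0.859).

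Gabarapl1, a GABARAP paralogue, was at 94.2, 104, 104, 156 and 136 CPM in BAT Ctrl and at 50.3, 151, 51.9, 71.4 and 57.3 CPM in BAT Csn8AKO. Csn8AKO replicate 2 lay among the highest Ctrl libraries and the other 4 lay below all of them, and the gene was not called (-0.64 ± 0.32 SE, adjusted p = 0.163). Without that library it was called lower (-1.04, adjusted p = 4.45e-04), and limma voom with quality weights called it with all libraries (-0.86, adjusted p = 0.0101). Exonic bases shared with 1700101I11Rik on the opposite strand made up 28.3% of Gabarapl1, and whether the count used the strand is not stated. In sWAT it was at 58.4 to 86.9 CPM in Ctrl and 34.9 to 60.8 in Csn8AKO (-0.54 ± 0.19 SE, adjusted p = 0.144). Map1lc3b (0.01 in BAT and 0.10 in sWAT), Gabarap (-0.12 and -0.01) and Gabarapl2 (-0.07 and -0.15) did not pass in either tissue, their BAT values carrying 95% intervals of -0.24 to 0.26, -0.31 to 0.07 and -0.28 to 0.15.

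**Figure D2:**
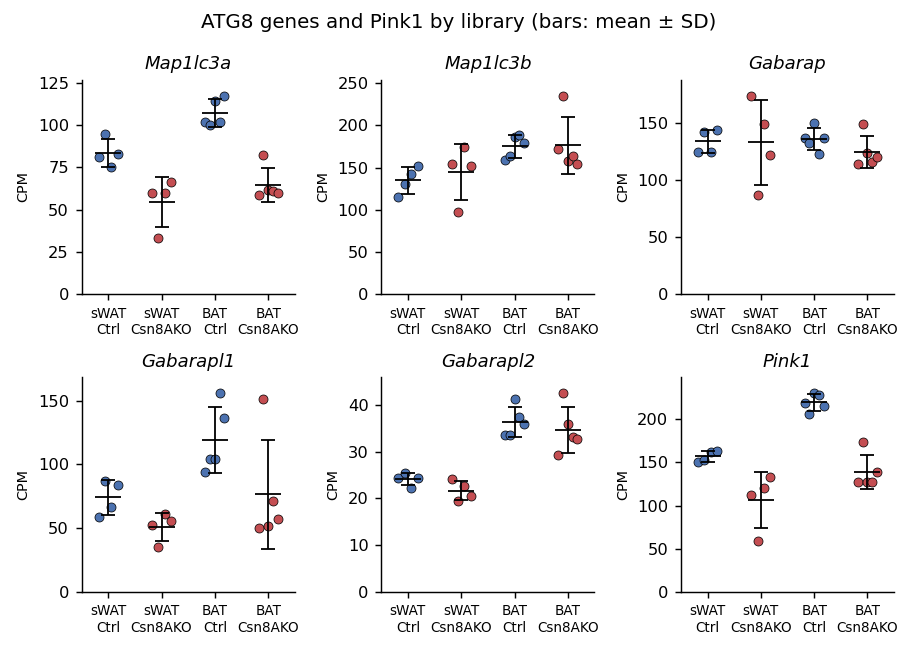
Level in each library (points, CPM scaled within each tissue) of the 5 ATG8 genes and Pink1 in Ctrl (blue) and Csn8AKO (red), with mean and SD as bars. Map1lc3a and Pink1 lie lower in every Csn8AKO library than in any Ctrl library of the same tissue, and BAT Csn8AKO replicate 2 lies apart at 151 CPM for Gabarapl1.

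The mix of ATG8 transcripts was taken as the share of each gene in the summed count per kilobase of the 5 genes. This value does not depend on the scaling between libraries, but it does depend on the gene lengths. In BAT the Map1lc3a share was 35.6, 34.6, 35.6, 31.8 and 35.5% in Ctrl and 29.0, 25.4, 28.8, 27.7 and 28.3% in Csn8AKO. The groups did not overlap, and the mean fell by 6.78 percentage points (two-sided exact permutation p = 0.00794, the smallest possible with 5 against 5 mice, adjusted p = 0.0265 over 10 tests). In sWAT it was 35.9, 35.1, 32.9 and 31.9% in Ctrl and 25.0, 24.5, 25.9 and 31.4% in Csn8AKO, again without overlap, Csn8AKO replicate 4 lying just under the lowest Ctrl library. The mean fell by 7.24 points (exact permutation p = 0.0286, the smallest possible with 4 against 4, adjusted p = 0.0454). The Map1lc3b share was higher in both tissues, 8.64 ± 1.03 against 11.2 ± 0.732% in sWAT (SD, n = 4; exact permutation p = 0.0286, adjusted p = 0.0454) and 8.88 ± 0.294 against 11.9 ± 0.793% in BAT (SD, n = 5; exact permutation p = 0.00794, adjusted p = 0.0265). The Gabarap share was higher as well, from 34.9 to 41.8% in sWAT (adjusted exact permutation p = 0.0454) and from 28.2 to 34.5% in BAT (adjusted exact permutation p = 0.0454), although not when counts were left without length scaling (adjusted p = 0.127 in both tissues), and in BAT the call held in 1 of 11 alternatives (adjusted p = 0.0397 to 0.127). The Gabarapl2 share rose in BAT from 5.96 to 7.59% (adjusted exact permutation p = 0.0265), and the Gabarapl1 share did not differ beyond its spread in either tissue (adjusted p = 0.143 in sWAT and 0.221 in BAT). The shares sum to 100% in each library, so that a lower share of a gene raises the others.

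**Figure D3:**
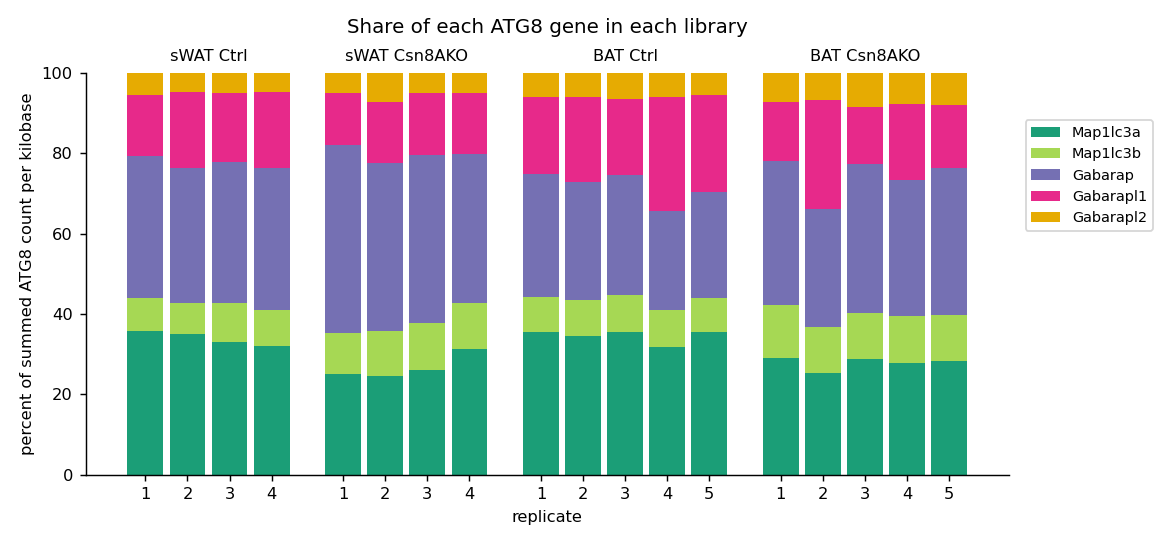
Share of each ATG8 gene in the summed ATG8 count per kilobase (percent, stacked to 100) in each of the 18 libraries. The Map1lc3a share at the base of each bar averages 34.0% in sWAT Ctrl, 26.7% in sWAT Csn8AKO, 34.6% in BAT Ctrl and 27.8% in BAT Csn8AKO.

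Of 4 cargo receptors, Sqstm1 rose and Optn fell in BAT. Sqstm1 (chr11:50199366-50210827, minus strand) codes for p62, which binds ubiquitinated cargo and ATG8 proteins, is degraded with its cargo, and is also a transcriptional target of NRF2. It was at 156, 156, 167, 174 and 227 CPM in Ctrl and at 236, 251, 224, 279 and 234 CPM in Csn8AKO. Ctrl replicate 5 lay above Csn8AKO replicate 3 and the other 4 Ctrl libraries lay below all Csn8AKO libraries (log2 fold change 0.48 ± 0.11 SE, 95% interval 0.24 to 0.71, adjusted p = 0.00475). The call held in 20 of 20 alternatives. Of its exonic bases 17.3% are shared with Mrnip on the opposite strand. In sWAT Sqstm1 was at 198, 266, 225 and 234 CPM in Ctrl and 218, 151, 245 and 265 CPM in Csn8AKO, with overlapping groups (-0.07 ± 0.19 SE, adjusted p = 0.878). The difference between the tissues had an unadjusted p of 0.0273 and did not pass adjustment (BAT minus sWAT 0.54 ± 0.22 SE, adjusted p = 0.248).

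Optn (chr2:5020642-5064051, minus strand) codes for optineurin, a receptor for ubiquitinated mitochondria and bacteria. It was at 92.5, 90.0, 106, 116 and 107 CPM in BAT Ctrl and at 74.4, 89.0, 69.4, 76.5 and 73.9 CPM in BAT Csn8AKO. The groups did not overlap, with Csn8AKO replicate 2 just below the lowest Ctrl library (-0.42 ± 0.091 SE, adjusted p = 0.00305). The call was lost with library size alone (-0.30, adjusted p = 0.0528) and in the fit of all 18 libraries (-0.44, adjusted p = 0.134). Nbr1 and Tax1bp1, which code for other ubiquitin-binding receptors, were at 0.05 and 0.03 in BAT. In sWAT the 4 receptors lay between -0.55 and -0.04, the lowest being Optn (-0.55 ± 0.30 SE, adjusted p = 0.348).

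Of 6 genes for fusion with the lysosome, Stx17 fell and Plekhm1 rose in BAT. STX17 is the SNARE protein placed on closed autophagosomes, where it pairs with SNAP29 and the lysosomal SNARE VAMP8. Stx17 (chr4:48124915-48186507, plus strand) was at 37.1, 36.8, 37.1, 34.3 and 35.5 CPM in Ctrl and at 29.8, 25.1, 28.0, 20.2 and 23.7 CPM in Csn8AKO. The Ctrl libraries lay close together and all Csn8AKO libraries lay below them (-0.51 ± 0.097 SE, 95% interval -0.72 to -0.30, adjusted p = 0.00119, called in 20 of 20 alternatives). Its partners Snap29 (-0.13, 95% interval -0.37 to 0.11) and Vamp8 (-0.08, 95% interval -0.28 to 0.13) did not pass the test. Plekhm1, an adaptor that links RAB7 to the tethering complex HOPS and to ATG8 proteins, was at 63.8, 58.4, 80.8, 76.6 and 77.5 CPM in Ctrl and at 83.2, 95.1, 80.6, 87.6 and 89.4 CPM in Csn8AKO. The ranges met at Csn8AKO replicate 3 and Ctrl replicate 3 (0.29 ± 0.095 SE, adjusted p = 0.0325), and the call held in 12 of 20 alternatives. Rab7, the small GTPase of late endosomes, was at 0.18 (adjusted p = 0.0906) and Epg5, a RAB7 effector that tethers autophagosomes, at -0.17 (adjusted p = 0.0800). In sWAT, Stx17 was at 33.6, 40.6, 39.6 and 40.4 CPM in Ctrl and 35.4, 27.9, 29.3 and 39.2 CPM in Csn8AKO, which overlapped (-0.23 ± 0.14 SE, adjusted p = 0.423). Vamp8 was at 0.36 (adjusted p = 0.243) and Epg5 at -0.25 (adjusted p = 0.237) in sWAT.

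Of 4 mitophagy genes, Pink1 and Fundc1 fell in BAT while Bnip3 and Bnip3l did not pass the test. PINK1 is the kinase that builds up on damaged mitochondria and phosphorylates ubiquitin there. Pink1 (chr4:138313409-138326307, minus strand) was at 219, 206, 230.2, 229 and 216 CPM in Ctrl and at 128, 174, 127, 127 and 139 CPM in Csn8AKO. All Csn8AKO libraries lay below all Ctrl libraries, replicate 2 being the highest of them (-0.66 ± 0.097 SE, 95% interval -0.87 to -0.46, adjusted p = 1.58e-04, called in 20 of 20 alternatives). In sWAT, Pink1 was at 150.3, 153, 162 and 164 CPM in Ctrl and at 112, 59.3, 120.0 and 133 CPM in Csn8AKO. These did not overlap either, and the lowest was Csn8AKO replicate 2, the library of lowest adipocyte markers in sWAT. The adjusted test was not passed (-0.57 ± 0.22 SE, adjusted p = 0.175) except in the fit of all 18 libraries (-0.57, adjusted p = 0.0489).

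FUNDC1 is a receptor in the outer mitochondrial membrane that binds ATG8 proteins. Fundc1 (chrX:17556564-17572325, minus strand) was at 14.9, 13.9, 15.5, 13.9 and 13.8 CPM in BAT Ctrl and at 9.87, 9.62, 8.56, 8.18 and 8.52 CPM in BAT Csn8AKO. The groups were well apart, the highest Csn8AKO library being below the lowest Ctrl library (-0.69 ± 0.096 SE, 95% interval -0.89 to -0.48, adjusted p = 1.10e-04, called in 20 of 20 alternatives). In sWAT it was at 13.6, 11.6, 13.8 and 14.7 CPM in Ctrl and 19.1, 10.46, 12.1 and 11.0 CPM in Csn8AKO. Csn8AKO replicate 1 was the highest of these 8 libraries and the other 3 Csn8AKO libraries lay near or below the lowest Ctrl library (-0.03 ± 0.21 SE, adjusted p = 0.955). The difference between tissues was the largest of the 42 genes (BAT minus sWAT -0.68 ± 0.22 SE, unadjusted p = 0.00587) and did not pass adjustment (adjusted p = 0.121), although limma voom called it, as did the fit without sWAT Csn8AKO replicate 2. Bnip3 and Bnip3l, mitochondrial receptors that are induced by hypoxia, were at 0.07 (95% interval -0.28 to 0.42) and -0.05 (95% interval -0.24 to 0.15) in BAT.

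**Figure D4:**
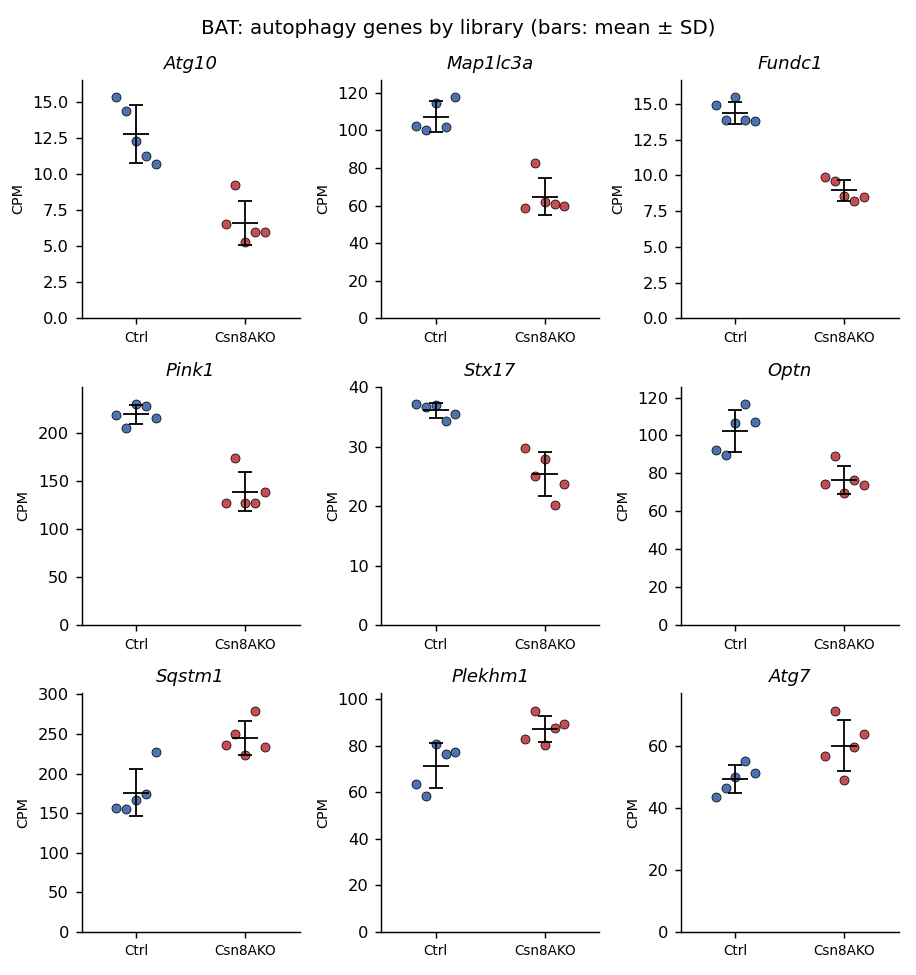
Level in each BAT library (points, CPM) of the 6 autophagy genes with the largest called decreases and the 3 called higher, in 5 Ctrl (blue) and 5 Csn8AKO (red) mice, with mean and SD as bars and axes from 0. The groups do not overlap for the 6 lower genes and overlap for Sqstm1, Plekhm1 and Atg7.

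In the direct test of tissue, 0 of the 42 genes had a genotype effect in BAT different from that in sWAT at an adjusted p of 0.05, beside 2.36% of 22509 genes, and 4 had an unadjusted p under 0.05 (Fundc1, Sqstm1, Vamp8 and Wipi1), beside 15.3% of all genes. DESeq2 called 0 as well, beside 5.18% of all genes by that method, and limma voom called 1, Fundc1, beside 4.01%. Of the 11 genes lower in BAT, 11 had a negative log2 fold change in sWAT, beside 82.9% of all genes lower in BAT. Of the 3 higher in BAT, 1 was positive in sWAT, beside 82.3%. Across the 42 genes the log2 fold changes of the 2 tissues had a Pearson r of 0.64 and a Spearman rho of 0.55, a description over genes that share libraries within each tissue. Genes whose Ctrl and Csn8AKO libraries did not overlap numbered 10 lower (background 10.9%) and 0 higher (background 10.1%) of the 42 in BAT, and 5 lower (background 8.23%) and 1 higher (background 5.80%) in sWAT. Of the 42 genes, 27 had a log2 fold change below 0 in sWAT (background 46.7%) and 23 in BAT (background 49.5%). The median log2 fold change of the 42 was -0.04 in BAT and -0.05 in sWAT, beside 0.01 and 0.03 over all genes tested.

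A list of 84 other gene symbols of the pathway was taken, of which 82 were matched and tested, while Wipi3 and Vamp7 were not matched by name. Of the 82, 11 were called higher and 16 lower in BAT (32.9%, beside 31.9% of all genes). In sWAT, 3 were called higher and 1 lower (4.88%, beside 5.31%). Trp53inp1, Rab7b and Mitf were higher in both tissues. Trp53inp1, a p53 target whose protein binds ATG8 proteins, rose from 32.7 ± 3.90 to 53.6 ± 12.2 CPM in sWAT (SD, n = 4; log2 fold change 0.71 ± 0.17 SE, adjusted p = 0.0386) and from 29.7 ± 6.02 to 61.9 ± 34.0 CPM in BAT (SD, n = 5; 1.06 ± 0.33, adjusted p = 0.0349). Its BAT groups overlapped, at 22.27 to 35.46 CPM in Ctrl and 33.65 to 120.6 CPM in Csn8AKO. Rab7b, a small GTPase of the endosomal pathway expressed in macrophages, rose by a log2 fold change of 0.82 ± 0.15 in sWAT (adjusted p = 0.0129) and 1.42 ± 0.19 in BAT (adjusted p = 9.55e-05), beside the macrophage markers that rose in both tissues. Mitf, a transcription factor of the TFEB family that is expressed in macrophages and other cells, rose by 0.71 ± 0.17 in sWAT (adjusted p = 0.0390) and 0.72 ± 0.16 in BAT (adjusted p = 0.00312), where the groups overlapped. Tfeb rose by 0.34 ± 0.097 in BAT (adjusted p = 0.0162) and was not called in sWAT (0.10 ± 0.18, adjusted p = 0.818). Tfe3, listed with them among the upstream regulators, was called in neither tissue (0.10 in sWAT, adjusted p = 0.724, and 0.03 in BAT, adjusted p = 0.835).

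Other mitophagy genes gave 3 called lower and 0 higher of 10 in BAT, a share near that of all genes (31.9%), namely Nipsnap1, Nipsnap2 and Fundc2. Nipsnap1 and Nipsnap2, mitochondrial proteins that recruit mitophagy receptors, were at -1.19 ± 0.14 (adjusted p = 3.26e-05) and -0.67 ± 0.11 (adjusted p = 4.34e-04) in BAT. Sesn3, which codes for a sestrin that acts upstream of mTORC1, fell from 37.7 ± 8.66 to 24.5 ± 4.61 CPM in BAT (SD, n = 5; -0.62 ± 0.16, adjusted p = 0.00924), with overlapping groups. Plekhm2, a relative of Plekhm1 that couples lysosomes to kinesin, had the largest increase, from 48.7 ± 6.98 to 162 ± 43.9 CPM in BAT (SD, n = 5; 1.73 ± 0.18, adjusted p = 2.97e-05), and its change was larger in BAT than in sWAT (BAT minus sWAT 1.17 ± 0.25 SE, adjusted p = 0.0145). In sWAT, Trp53inp2 (DOR), a coactivator and ATG8-binding protein, fell from 518 ± 46.2 to 238 ± 99.99 CPM (SD, n = 4; -1.12 ± 0.26, adjusted p = 0.0360).

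**Figure D5:**
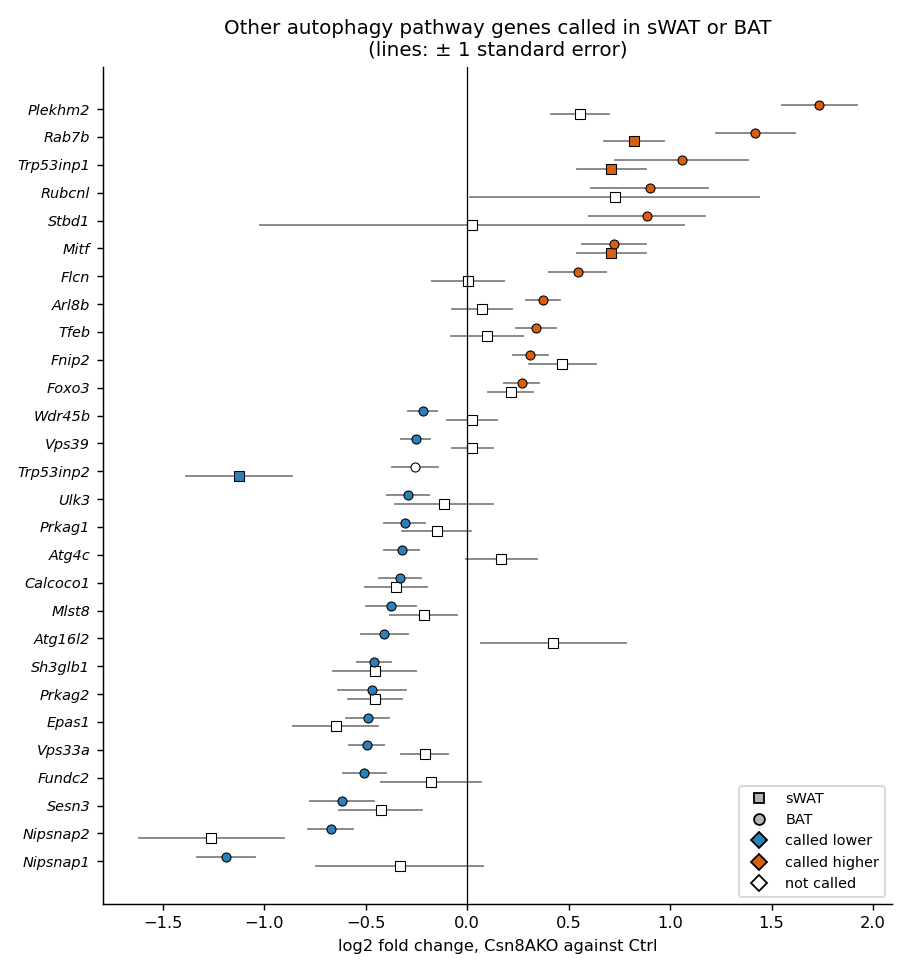
Log2 fold change, Csn8AKO against Ctrl, of the other pathway genes called in sWAT (squares) or BAT (circles), with lines of 1 standard error and filled symbols for an adjusted p under 0.05. In BAT, Plekhm2 at 1.73 is the highest and Nipsnap1 at -1.19 the lowest, and Trp53inp1, Rab7b and Mitf are filled as higher in both tissues.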

How the data were processed

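RNA of 18 mice was depleted of ribosomal RNA and sequenced as paired reads by the authors, who aligned reads to GRCm38 (Ensembl release 101) with STAR 2.7.9a and made the deposited raw count of each gene with featureCounts 2.0.3 (strand setting not stated). The CPM, FPKM and TPM columns deposited by the authors follow from those counts and were not used. Genotypes were compared within each tissue with edgeR 4.0.16 in R 4.3.3 (TMM factors, filterByExpr with a minimum count of 10 and total of 15, robust quasi-likelihood test, Benjamini-Hochberg over all genes tested), with an adjusted p below 0.05 as the limit for a call. CPM in the text uses TMM factors of the tissue. DESeq2 1.42.0 and limma 3.58.1 (voom with quality weights) were alternatives, among other normalizations and filters, the removal of ribosomal RNA genes, a replicate block, all libraries in a single fit and each library left out. Shares and library measures were compared by exact permutation tests in scipy 1.17.1. The autophagy genes and all lists were chosen with earlier results of these data known. Genes with an adjusted p under 0.05, all ATG8 genes, Ulk1 and Sqstm1 were named, the 6 of largest change in each direction with every library. Others named, such as Uvrag and Wipi1 in sWAT, were chosen after their values were seen. For 1 gene of the list of other pathway genes, results are not reported here.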

Additional observations from a re-analysis of the deposited data

Results flagged for a closer look

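Of 72 groups examined, 7 held a library whose gap to its nearest neighbour was large for the range of its group, a criterion that chance meets in about 1 in 20 groups. BAT Csn8AKO replicate 2 stood above the other 4 libraries of its group for 5 genes, at 204 CPM for Wipi2 (others 157 to 159), 82.6 CPM for Map1lc3a (others 58.8 to 61.8), 235 CPM for Map1lc3b (others 154 to 171), 151 CPM for Gabarapl1 (others 50.3 to 71.4) and 174 CPM for Pink1 (others 127 to 139). The same library had 15.1% of counts on ribosomal RNA genes, the highest share in BAT. Of the BAT Csn8AKO libraries it had the highest adipocyte (13422 CPM) and brown adipocyte markers (8324 CPM). It also had the lowest macrophage (229 CPM) and fibroblast and progenitor markers (2716 CPM) of them. The part of these traits in its values was not tested. Without this library, 14 autophagy genes were called lower in BAT and 1 higher, beside 35.7% of all genes called in that fit. The 11 called lower with all libraries were among the 14, with Pik3c3, Gabarapl1 and Epg5 added.

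Sqstm1 was at 227 CPM in BAT Ctrl replicate 5 (others 156 to 174). Stx17 was at 33.6 CPM in sWAT Ctrl replicate 1 (others 39.6 to 40.6), a library of high T cell markers.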

How the results depend on the processing

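No called change of the autophagy genes turned its direction under an alternative. In BAT, Atg10, Map1lc3a, Fundc1, Pink1, Stx17 and Sqstm1 were called in 20 of 20 alternatives, Pik3r4 and Ulk2 in 19, Optn and Wipi2 in 18, Ulk1 in 17, Plekhm1 in 12, Atg4a in 10 and Atg7 in 9. The number called higher in BAT, 3, was 6 with library size alone (5 lower), beside 28.1% of all genes called in either direction. It was 1 with no filter on low counts (beside 16.7%) and in the fit of all 18 libraries (beside 23.4%). It was also 1 without the libraries of high muscle marker level (beside 22.9%), an alternative chosen after seeing the data. Leaving out each library gave 1 to 4 called higher and 10 to 14 lower, beside 25.3 to 35.7% of all genes called. There was 1 higher (Sqstm1, while Atg7 and Plekhm1 were lost) without Csn8AKO replicate 2, 4 or 5 or Ctrl replicate 1 or 2. In sWAT, limma voom called 1 gene higher, Wipi1, beside 11.4% of all genes called in either direction. Without the libraries of high T cell markers (chosen after seeing the data) Wipi1 was again the 1 called higher, beside 9.81%. The fit of all 18 libraries called 1 higher (Uvrag) and 2 lower (Map1lc3a and Pink1), beside 10.9% of all genes. Leaving out each sWAT library gave 0 to 1 higher, beside 1.66 to 7.69%, the 1 being Wipi1 without Csn8AKO replicate 2. In the interaction, limma voom called 1 lower, Fundc1, beside 4.01% of all genes. Leaving out each library gave 0 to 1, beside 1.56 to 3.13% of all genes, the 1 being Fundc1 without sWAT Csn8AKO replicate 2.

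The share of Gabarap, without length scaling, was higher by 2.96 points in sWAT and 2.76 in BAT (adjusted p = 0.127 in both), and that of Gabarapl1 fell by 3.72 points in sWAT (adjusted exact permutation p = 0.0476). With a library left out, sWAT shares moved by -8.81 to -6.50 (Map1lc3a), 2.21 to 2.95 (Map1lc3b) and 5.17 to 8.43 points (Gabarap), with adjusted p of 0.0714 to 0.0816, since fewer mice cannot give a smaller p. In BAT, that of Gabarap moved by 5.48 to 7.67 points (adjusted p = 0.0680 to 0.0907, except 0.0397 without Csn8AKO replicate 2) and that of Gabarapl1 by -6.48 to -2.69 points, the latter called without Csn8AKO replicate 2 (adjusted exact permutation p = 0.0397).

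The labels do not say whether the replicate numbers pair the mice. Deviations of same-numbered libraries correlated at -0.47 to 0.31 in sWAT and -0.18 to 0.22 in BAT. Of the libraries, 0 of 4 and 2 of 5 correlated best with their own number. Such correlations cannot show that the mice were unpaired. A replicate block left 0 autophagy genes called in sWAT, beside 1.59% of all genes. In BAT the block left 2 autophagy genes higher and 10 lower, without Atg7 and Atg4a, beside 30.3% of all genes called.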
